A study of Canis lupus familiaris with 10 samples.

Results

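The 251 regions described here were accessible chromatin regions of the canine B-cell lymphoma cell line 17-71 that lie upstream of a gene, across its start or over the whole of it. They were selected from the 1999 rows at hand of the authors' table of 17-71 regions, which is ordered by the authors' own comparison of treated with control libraries, and all rows whose annotation placed the region upstream of its paired gene (167), overlapping the gene's start (72) or containing the gene (12) were kept in either direction. The other rows held 1484 distal regions and 264 regions in gene bodies or downstream. Because the row order came from the same 17-71 comparison, every difference between treated and control 17-71 libraries below is a description without a test. The regions were paired with 247 gene identifiers, and 4 genes (LPAR6, PXT1, CREBL2 and ENSCAFG00000038194) had 2 regions each. Protein coding genes were paired with 178 regions, lincRNAs with 45, and small structural or regulatory RNAs (rRNA, snRNA, snoRNA, miRNA and miscellaneous RNA) with 20.

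17-71 cells were harvested on day 4, giving 3 control libraries (b1, b2 and b3) and 2 from cells exposed to 100 nM C220 (libraries b4 and b6), an inhibitor of the protein arginine methyltransferase PRMT5 that the sample labels call PR220. CLBL-1, also a canine B-cell lymphoma line, was harvested on day 2, giving 2 control libraries, c2 and c3, and 3 from cells exposed to 100 nM C220, c4, c5 and c6, so cell line and day cannot be told apart. Each library was profiled by ATAC-seq, in which a transposase inserts sequencing adapters into DNA that is not wrapped in nucleosomes. The study describes its ATAC-seq as biological replicates, but the labels do not tie the libraries to separate cultures. The authors' methods state that outlier samples were removed, without naming them.

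PRMT5 adds symmetric dimethyl marks to arginines of histones and of many other proteins, including splicing factors. Several of its histone marks are associated with gene silencing, whereas another is associated with open chromatin and gene expression. Promoters are the sequences around a gene's start where the transcription machinery assembles, and their nucleosomes are usually displaced when a gene is active or poised. In mature B cells, genes of antigen presentation, of surface receptors and of receptor signalling carry open promoters.

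Depth could not be read from the peak lists. In 17-71 the list lengths were 44378, 33358 and 30943 peaks for the controls b1, b2 and b3, against 22076 for b4 and 27646 for b6. At the promoter-side regions, the median −log10 p of the called peaks was 18.3, 16.1 and 15.7 in the controls against 7.79 and 8.80 in the C220 libraries, whereas the median fold enrichment (peak signal over the caller's local background) was 3.73, 3.40 and 3.42 against 3.79 and 3.34. The treated 17-71 libraries thus had shorter lists and weaker p-values at similar fold enrichment, which bears on every absence of a call below, and the part of list length in those absences was not tested. In CLBL-1 the list lengths of the groups overlapped (23822 and 23318 peaks in controls, 27026, 27247 and 23082 with C220).

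A peak was called at 203, 188 and 186 of the 251 regions in b1, b2 and b3, and at 151 and 182 in b4 and b6. These are 80.9%, 74.9%, 74.1%, 60.2% and 72.5% of the regions, beside 90.0%, 67.9%, 63.2%, 44.6% and 56.2% of all 48847 merged regions of 17-71. Both C220 libraries therefore carried fewer of the promoter-side regions than any control, as they did over all regions.

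**Figure D1:**
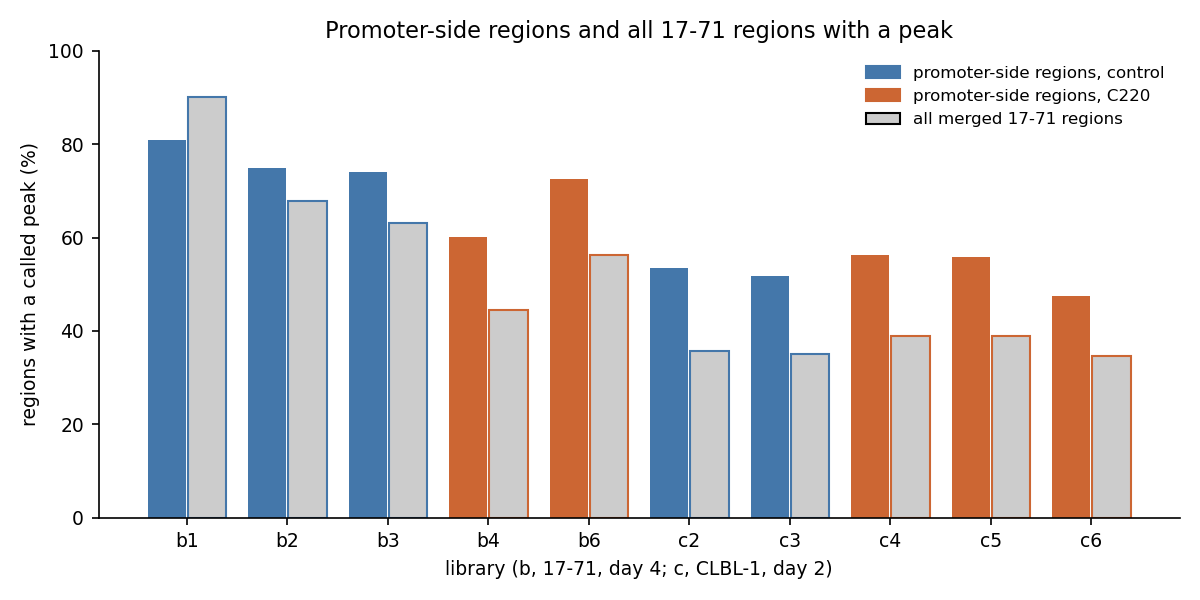
Percent of regions with a called peak in each of the 10 libraries. Solid bars are the 251 promoter-side regions (blue, control; orange, C220) and grey bars all merged regions of 17-71; b4 has the lowest solid bar among the 17-71 libraries, at 60.2%.

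All 5 libraries of 17-71 had a peak at 114 of the 251 regions (45.4%), beside a background of 36.1% over all merged regions. A peak in all 3 controls and neither C220 library was found at 25 regions (9.96%; background 6.94%), and the reverse pattern, both C220 libraries and no control, at 1 region (background 0.215%). At 33 regions all 3 controls and a single C220 library had a peak, and that library was b6 in all 33 (background 9.85% with b6 and 1.89% with b4). A single C220 library and no control had a peak at 38 regions (background 3.55%), in b4 at 22 and in b6 at 16, and a single control library alone had one at 9 (background 21.8%). These counts moved with the peaks used. With lists of equal length (the 20000 peaks of largest −log10 p in each library) the controls alone had a peak at 8 regions (1.41% of all merged regions) and the C220 libraries alone at 8 (1.28%), whereas with peaks of −log10 p of at least 10 the counts were 45 (6.09%) and 0 (0.0143%), beside 38 (13.7%) called in all 5 libraries. Without b6 the controls alone had a peak at 58 regions (16.8%). The remaining C220 library alone had one at 23 regions without b6 (1.82%) and at 17 without b4 (2.16%). Since the choice of rows used this contrast, nothing is read from the distance of these shares to their backgrounds.

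**Figure D2:**
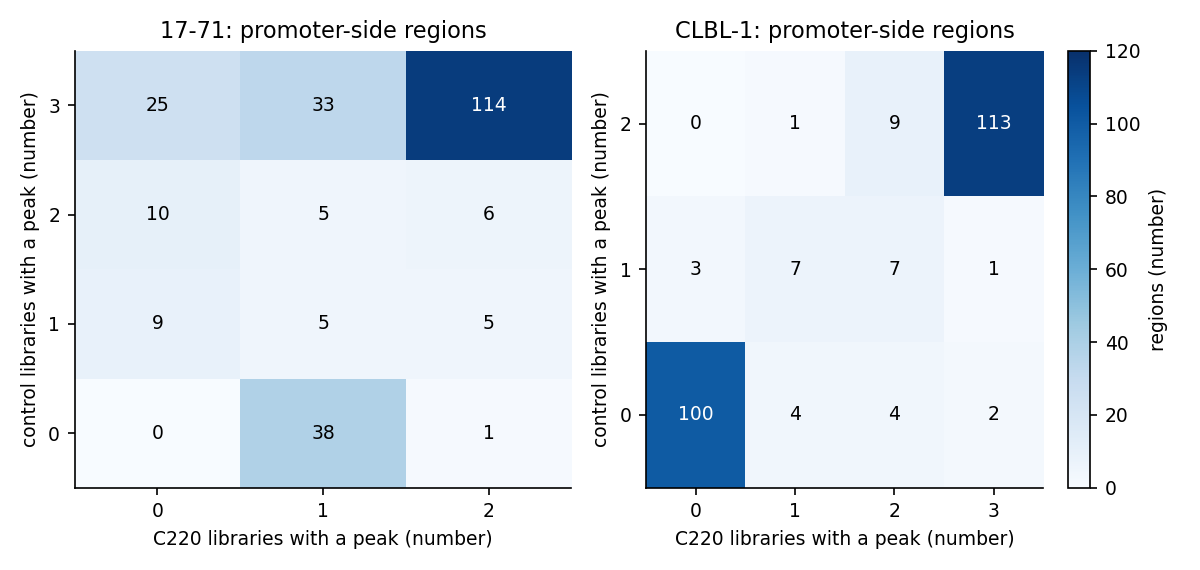
Number of promoter-side regions by how many control libraries (vertical axis) and how many C220 libraries (horizontal axis) had a peak, for 17-71 on the left and CLBL-1 on the right. In 17-71 the counts spread over 114 regions called in all 5 libraries, 33 with 3 controls and 1 C220 library, 38 with 1 C220 library alone and 25 with the controls alone, whereas in CLBL-1 113 regions were called in all 5 libraries and 100 in none.

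Counts by position relative to the gene are given as a description. Of the 72 regions across a gene start, 41 were called in all 5 libraries of 17-71 (56.9%; background 36.1%), 6 in the controls alone (8.33%; background 6.94%) and 7 in 1 C220 library alone (9.72%; background 3.55%). Of the 167 upstream regions, 66 were called in all 5 (39.5%), 19 in the controls alone (11.4%) and 30 in 1 C220 library alone (18.0%). The 12 regions that contain a whole gene, 8 of which contain a small RNA gene, were called in all 5 libraries in 7 cases and in the controls alone in 0, a number too small to set beside the background. Regions across a start were also the widest, with a median of 2648 bp against 1182 bp upstream and 1012 bp over all merged regions. A wider region can be touched by a peak more easily, and the part of width in these counts was not tested. The distal rows of the same table were called in all 5 libraries in 446 of 1484 cases and in 1 C220 library alone in 426, and the gene-body and downstream rows in 77 and 54 of 264.

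The 25 regions with a peak in every control and in no C220 library included genes of antigen presentation, transcription, the actin cytoskeleton and complement. DLA-DOB (chr12:2381927-2384032, across the start) encodes a chain of the class II-like DO molecule, which modulates peptide loading in B cells. Its fold enrichment was 3.45, 3.29 and 3.18 in b1, b2 and b3, and no peak was called in b4 or b6. In CLBL-1 the same region had a peak in all 5 libraries, with folds of 3.13 and 3.71 in the controls and 3.18, 3.45 and 3.15 with C220. The CLBL-1 groups overlapped.

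Transcription factor and chromatin genes contributed 4 of the 17 members of their list to this pattern (background 6.94% of all merged regions, and 25 of the 251 promoter-side regions). TCF4 (chr1:20060652-20063249, across the start), an E protein that acts in B cell and dendritic cell development, had folds of 3.55, 3.21 and 3.55 in the controls, and in CLBL-1 a peak in c4 (2.89) and c5 (2.67) alone. L3MBTL2 (chr10:24025376-24026601, upstream), a chromatin reader of a Polycomb complex, had folds of 3.01, 2.87 and 3.1 and no call in CLBL-1. For ZBTB1 (chr8:38929107-38932135, upstream), a zinc finger factor needed for lymphoid development, they were 2.39, 2.76 and 2.41. JADE2 (chr11:22645569-22647546, upstream), a scaffold of histone acetyltransferase complexes, was called at 3.31, 2.92 and 2.65. In CLBL-1, ZBTB1 was called in all 5 libraries and JADE2 in c3, c4 and c5. The other 13 members of this list divided into 5 called in all 5 libraries of 17-71, among them ARID1A, a subunit of the SWI/SNF remodelling complex, and 8 with other patterns. HMX1 (chr3:60508832-60509850, upstream), a homeobox gene that is the first of the 251 in row order, had a peak in b6 alone (fold 3.12), and SOX5 and LMX1B, both developmental factors, likewise had 1 peak each, in b6 and b4.

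Among the 4 actin cytoskeleton genes, 2 were called in controls alone (background 6.94%), in a list too small to be read against that share. RAPH1 (chr37:12378823-12381682, across the start), which encodes lamellipodin at the leading edge of cells, had folds of 3.64, 3.18 and 3.92 in the controls and no call in CLBL-1. ARPC5 (chr7:16982717-16987133, across the start), a subunit of the ARP2/3 actin nucleator, had folds of 2.83, 3.76 and 3.52 in the 17-71 controls and a peak in all 5 CLBL-1 libraries, between 3.05 and 4.16. The other members of the list had peaks in all 5 libraries of 17-71. LCP1, the actin bundling protein of leukocytes, gave folds of 3.72, 3.58 and 3.21 in the controls and 4.19 and 3.88 with C220, which did not overlap. CORO1A, a coronin of leukocytes, gave 6.70, 6.46 and 5.48 against 3.87 and 5.32. Both C220 libraries were lower in this linear fold and after quantile normalization. After centring on each library's median the groups overlapped, and the difference of −0.36 was −0.08 without b4.

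STK17B (chr37:5823423-5826701, upstream) encodes a kinase that sets the threshold of lymphocyte receptor signalling. It was the weakest of the 25 by the −log10 p of its weakest control peak (5.08). Its folds were 2.77, 2.51 and 2.44 in the 17-71 controls, against 5.40 and 3.97 in the CLBL-1 controls and 4.22, 3.89 and 4.76 in CLBL-1 with C220. By the −log10 p of the weakest control peak, the strongest of the 25 were ENSCAFG00000033915 (chr16:8693357-8694029, 9.93), L3MBTL2 (9.23), CFP (chrX:41254081-41254954, 8.90), TRIT1 (chr15:3020542-3020957, 8.81), DLA-DOB (8.29) and MBNL1 (chr23:46736987-46737996, 8.27). CFP encodes properdin of the complement system, TRIT1 a tRNA-modifying enzyme and MBNL1 a splicing regulator. Over all 25 regions this value ran from 5.08 to 9.93 with a median of 6.78, whereas the caller's limit is 5. The absence of a call in b4 and b6 therefore shows that no peak passed that limit there, and does not show closed chromatin.

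**Figure D3:**
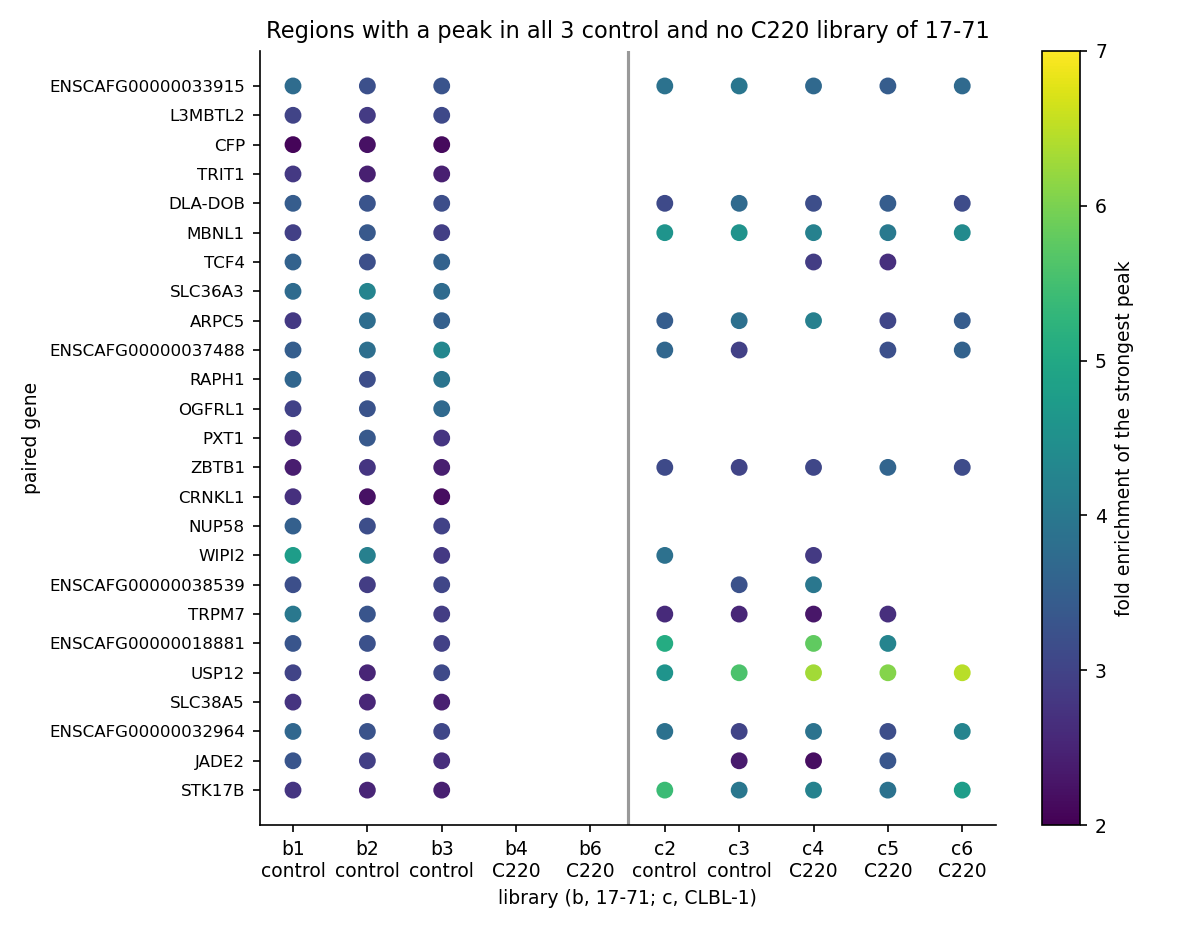
Fold enrichment (color) of the strongest peak at the 25 regions called in all 3 controls and no C220 library of 17-71, by paired gene (rows) and library (columns); an empty position means no call. The columns b4 and b6 are empty because they define the set, and 10 of the 25 rows are also empty in all CLBL-1 libraries.

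The opposite pattern had a single member, a lincRNA, ENSCAFG00000035864 (chr21:27124083-27125713, upstream), with folds of 3.24 in b4 and 2.78 in b6 and no peak in the other libraries of either line. The 38 regions called in 1 C220 library alone were near the caller's limit, with a median −log10 p of 5.49 and a largest value of 8.10, and 29 of them had no call in CLBL-1 (background 55.2%). They included SIGIRR, a receptor that restrains Toll-like and interleukin-1 signalling, with a fold of 2.90 in b6 and a peak in all 5 CLBL-1 libraries.

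Peak strength could be compared at the 114 regions called in all 5 libraries of 17-71. The log2 fold enrichment was centred on each library's median over the 17618 merged regions called in all 5, and the C220 mean minus the control mean is given. Each SE given with a difference is the moderated standard error from limma, drawn toward the variance of all regions. It is therefore not the spread of that region's own libraries. It was positive at 64 and negative at 50 regions, with a median of 0.06 beside 0.03 over all 17618, and it ranged from −0.74 to 0.52. Without centring the split turned to 52 positive and 62 negative, and after quantile normalization to 55 and 59, so the balance of directions depended on the scaling. Both C220 libraries lay above all controls at 37 regions (background 20.3%) and below all controls at 14 (background 11.9%); without centring these counts were 14 (4.1% of all regions) and 31 (17.3%), and after quantile normalization 29 (16.2%) and 20 (14.7%).

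The lowest value was at CA14 (chr17:59501518-59502873, upstream), a membrane carbonic anhydrase. Folds there were 6.32, 5.23 and 6.37 in the controls and 3.31 and 3.41 with C220, a centred difference of −0.74 (SE 0.13) without overlap. HSD17B6 (chr10:1000572-1001886, upstream), an enzyme of steroid metabolism, followed with 6.47, 5.34 and 5.44 against 3.51 and 4.06, a difference of −0.52 (SE 0.12). Both kept their order of groups under each scaling tried. ENSCAFG00000039165 (chr3:29241691-29243956, across the start) had a difference of −0.44 (SE 0.19), but its centred groups overlapped and without b4 the difference was −0.12.

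STAP1 (chr13:58099001-58101873, across the start), an adaptor that acts downstream of the B cell receptor, had folds of 4.97, 5.55 and 4.69 in the controls and 3.36 and 3.78 with C220. Its centred difference was −0.42 (SE 0.15), and b6 lay just under b1. CLBL-1 folds at STAP1 were 2.80 and 3.39 in the controls and 2.72, 2.65 and 3.84 with C220, so that these groups overlapped.

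At the other end, CST8 (chr24:123337-124014, upstream), a cystatin, had folds of 4.75, 5.19 and 3.83 in the controls and 6.85 and 5.51 with C220, a difference of 0.52 (SE 0.15). ENSCAFG00000036257 (chr18:26175237-26179136, upstream) had 2.98, 2.66 and 2.96 against 3.96 and 3.53, a difference of 0.47 (SE 0.13). Neither had a call in CLBL-1, and in both the groups were apart. MIR21 (chr9:34335876-34338016, upstream), the gene of an abundant microRNA often raised in lymphoma, had folds of 3.56, 3.34 and 3.12 in the controls and 5.52 in b4 but 3.38 in b6. The linear values thus overlapped; the centred difference was 0.46 (SE 0.16) with b6 just above the controls, and it was 0.15 without b4.

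**Figure D4:**
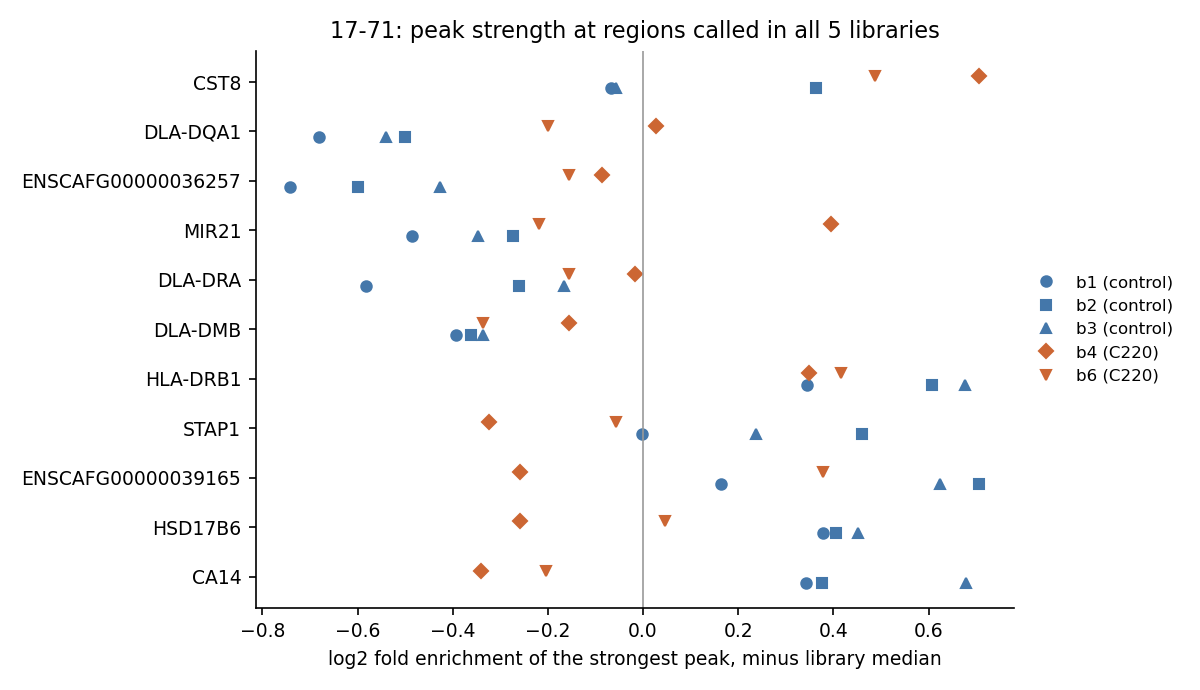
Centred log2 fold enrichment (horizontal axis) in the 5 libraries of 17-71 for the 4 regions of lowest and the 4 of highest C220 minus control difference and for the class II genes called in all 5 (rows). Blue symbols are controls and orange symbols C220; CA14 lies lowest relative to its controls (−0.74), and b4 lies apart from b6 at MIR21.

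Antigen presentation genes lay near one another in the genome. Their 5 regions all cross a gene start on chr12, and DLA-DRA, HLA-DRB1 and DLA-DQA1 follow one another with gaps of 30401 and 55083 bp. These neighbours may not be independent sites, which was not tested. Class II molecules present peptides to helper T cells. DLA-DQA1 (chr12:2220737-2224248), a class II α chain, had folds of 3.1, 2.85 and 2.74 in the controls and 4.28 and 3.42 with C220, a centred difference of 0.49 (SE 0.12) without overlap on either scale. DLA-DRA (chr12:2130793-2133835), the α chain of DR, had 3.32, 3.37 and 3.55 against 4.15 and 3.53. Its centred difference was 0.25 (SE 0.14), and the groups were apart after centring but overlapped in linear fold. It was 0.13 without b1 and 0.16 with a length-weighted mean over peaks. DLA-DMB (chr12:2507825-2511255), a chain of the peptide-loading DM molecule, had a difference of 0.12 (SE 0.12), 0.03 without b4 and 0.21 without b6, and its groups overlapped. HLA-DRB1 (chr12:2164236-2165654), a class II β chain, ran the other way, with 6.32, 6.14 and 6.35 against 5.34 and 5.25 in linear fold, but its centred groups overlapped (difference −0.16, SE 0.13). That difference was −0.26 without b1 and −0.10 without b3, and the groups were apart without centring. The 4 listed class II regions with a 17-71 difference thus did not share 1 direction, and DLA-DOB, without a call in b4 and b6, had no difference in 17-71. ENSCAFG00000000814, a gene without a name and on no list, lay 25815 bp beyond DLA-DQA1. Its 17-71 difference was 0.32 (SE 0.14), and 0.16 without b4. The groups there were apart after centring but overlapped without it. In CLBL-1 its difference was −0.07, with overlap. Paralogous class II genes can share reads. The authors' alignment setting reported at most 1 placement per read pair, and the part of shared reads in these values was not tested.

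The 19 regions of lymphocyte receptor genes (18 genes) divided by call as follows. In all 5 libraries 10 had a peak (background 36.1%), another 6 had a peak in all 3 controls and in b6 but not in b4 (background 9.85%), and none had the controls-alone or the C220-alone pattern (background 6.94% and 0.215%). The 6 were IL7R, the interleukin-7 receptor, IL10RA, the interleukin-10 receptor, BTLA, an inhibitory receptor, FCMR, the IgM Fc receptor, FCRL2, an Fc receptor-like protein, and the gene-containing region of LPAR6, a lysophospholipid receptor. FCRL2 (chr7:40551377-40552273, upstream), the last of the 251 in row order, had folds of 4.47, 3.78 and 3.43 in the controls and 3.21 in b6. IL7R had close values where it was called, at 2.60, 2.55 and 2.46 in the controls and 2.39 in b6. Of the 10, 5 had a positive and 5 a negative centred difference (3 and 7 without centring, 4 and 6 after quantile normalization), from −0.25 at CXCR6, a chemokine receptor, to 0.34 at CD69, an early activation marker. The CD69 difference was 0.07 without b4 and that of CXCR6 −0.04 without b6. At CCR7, the receptor that guides lymphocytes to lymph nodes, the folds were 4.65, 4.93 and 4.82 against 4.34 and 4.18, a centred difference of −0.09 that lay between −0.22 without b1 and −0.02 without b2.

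Receptor signalling genes were paired with 12 regions. Peaks in all 5 libraries were present at 6 (background 36.1%), and 5 more had all 3 controls and b6 (background 9.85%). Of the 6, 4 lay with both C220 libraries above the controls after centring (background 20.3%) and 2 (STAP1 and PTPRJ) below (background 11.9%). PTPRJ, a receptor phosphatase that acts on antigen receptor signalling, had folds of 5.66, 4.23 and 4.70 against 3.71 and 3.48, a difference of −0.34 (SE 0.12). DAPP1, a B cell adaptor that binds phosphoinositides, had 2.85, 3.02 and 2.91 against 4.15 and 3.1, a difference of 0.38 (SE 0.15). Without b4 the DAPP1 difference was 0.22, and at ZC3H12D, a regulator of immune mRNA decay (2.30, 2.19 and 2.21 against 3.26 and 2.35), it went from 0.39 to 0.21. TAGAP and SPRY4, both regulators of receptor signalling, made up the 4 with differences of 0.22 and 0.23, and TAGAP overlapped in linear fold and both overlapped after quantile normalization. The TAGAP difference was 0.09 without b4 and that of SPRY4 0.12 without b1.

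Interferon-linked genes numbered 4. IFIT3, an interferon-induced antiviral protein, had folds of 3.56, 3.63 and 3.53 in the controls and 4.76 and 4.09 with C220 (difference 0.39, SE 0.13), and SP110, an interferon-induced nuclear body protein, had 3.18, 2.58 and 3.23 against 3.47 and 3.71 (0.35, SE 0.14). At both, the C220 libraries lay above all controls after centring (background 20.3%), in a list too small to be read against that share. At SP110 the groups overlapped after quantile normalization. The other regions, at CGAS, the cytosolic DNA sensor, and TRIM35, were called in all 3 controls and b6 (background 9.85%).

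Genes typical of macrophages or endothelium were paired with 7 regions, of which 6 had no call in CLBL-1 (background 55.2%). CD163, a macrophage scavenger receptor, was called in all 5 libraries of 17-71 with folds of 3.76, 3.41 and 3.55 in the controls and 2.79 and 2.62 with C220, without overlap (difference −0.31, SE 0.12). CHI3L1, a secreted chitinase-like protein, was called at 4.73, 3.48 and 2.88 against 4.66 and 3.93. Its centred difference ran the other way (0.33, SE 0.13), with both C220 libraries above the controls after centring and overlap in linear fold, and it was 0.21 without b3. MARCO, a macrophage receptor, had a peak in b4 alone (3.53), and THBD, the endothelial receptor thrombomodulin, had 8.43 in b1, 2.62 in b2 and 11.1 in b4 and no call in b3 or b6. The labelled cell type was not checked against its markers here, since no annotation of the genome build was used.

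CLBL-1 libraries took no part in the choice of regions. At least 1 of them had a peak at 151 of the 251 (60.2%; background 44.8% of all merged 17-71 regions), and all 5 had one at 113 (background 29.3%). Regions across a start were called in all 5 CLBL-1 libraries in 47 of 72 cases and upstream regions in 61 of 167. Of the distal rows 314 of 1484 were called in all 5. No region was called in both CLBL-1 controls and no C220 library (background 0.201%), and 2 were called in all 3 C220 libraries and no control (background 0.647%), CCR1, a chemokine receptor, with folds of 2.43, 2.67 and 2.45, and ENSCAFG00000038670 with 4.72, 3.91 and 4.18. These 2 were named after their values were seen. Of the 25 regions called in the 17-71 controls alone, 8 had a peak in all 5 CLBL-1 libraries, 15 in at least 1 and 10 in none.

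Peak strength in CLBL-1 was tested with limma over the 18371 regions called in all 5 of its libraries, of which 117 overlapped a promoter-side region. None of the 117 passed in either direction, with a smallest adjusted p of 0.826 (limma, Benjamini-Hochberg), and 6 had an unadjusted p under 0.05. Over all regions 1 was higher with C220 (background 0.00544%; chr11:67476214-67480754, difference 0.89, SE 0.09, limma adjusted p = 0.0373; not a promoter-side region) and none was lower (background 0%), beside 1076 at an unadjusted p under 0.05. The call on chr11 was lost without centring, with a length-weighted mean over peaks, and without c4, c5 or c6. A fit without c2 or c3 leaves only 1 control, so no call is read from it. In simulated data of this design, 177 of 200 planted log2 changes of 1 were called, with 4 false calls. No smaller change was planted, so the recovery of differences as small as those measured here is not known. The C220 minus control difference was positive at 63 and negative at 54 of the 117, with a median of 0.01 and a range from −0.31 to 0.42. All C220 libraries lay above both controls at 12 (background 9.61%) and below both at 13 (background 10.6%). Without centring these counts were 13 (8.36% of all regions) and 7 (7.51%), and after quantile normalization 12 (10.5%) and 12 (9.76%). The sign split was 53 to 64 without c2, 51 to 66 without c5 and 57 to 67 without c6. It was 66 to 52 without c3 and 68 to 50 without c4.

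The largest CLBL-1 difference was 0.42 (SE 0.11) at ENSCAFG00000036388, followed by NABP1, a single-stranded DNA binding protein of DNA repair, at 0.39 (SE 0.11). NABP1 folds were 4.64 and 4.65 in the CLBL-1 controls and 5.59, 5.67 and 7.12 with C220, which did not overlap, beside 7.13, 5.55 and 4.95 against 5.60 and 5.40 in 17-71, which did. At DLA-DRA the CLBL-1 folds were 3.43 and 3.17 in the controls and 2.79, 2.74 and 2.78 with C220, a difference of −0.26 (SE 0.09) that did not pass (limma adjusted p = 0.834). All 5 class II regions had a negative CLBL-1 difference, under each scaling tried, but after centring the groups overlapped at DLA-DOB and HLA-DRB1, without centring they overlapped at every one but DLA-DRA, and the sign turned without c3 at DLA-DOB (0.12) and HLA-DRB1 (0.13) and without c4 at HLA-DRB1 (0.01). USP12, a deubiquitinase called in the controls alone in 17-71 (3.01, 2.52 and 3.1), had 4.58 and 5.59 in the CLBL-1 controls and 6.31, 6.08 and 6.47 with C220, a difference of 0.31 (SE 0.12; limma adjusted p = 0.834) that was 0.11 without c2 and 0.51 without c3.

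Strength was measured in both lines at 77 regions. The difference was positive in both at 25, negative in both at 14, positive in 17-71 and negative in CLBL-1 at 19 and the reverse at 19. The 17-71 signs depended on the scaling, as given above. The same sign counts were not made over all regions, so no agreement between the lines is read from them. ARRDC3, an arrestin-like regulator, was among the 25, with 0.42 in 17-71 and 0.22 in CLBL-1, and its folds were 3.11, 2.91 and 3.18 against 4.61 and 3.26 in 17-71 and 3.58 and 3.56 against 4.57, 3.59 and 4.41 in CLBL-1. Its groups were apart in both lines, with b6 and c5 close to their controls, and the 17-71 difference was 0.22 without b4.

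**Figure D5:**
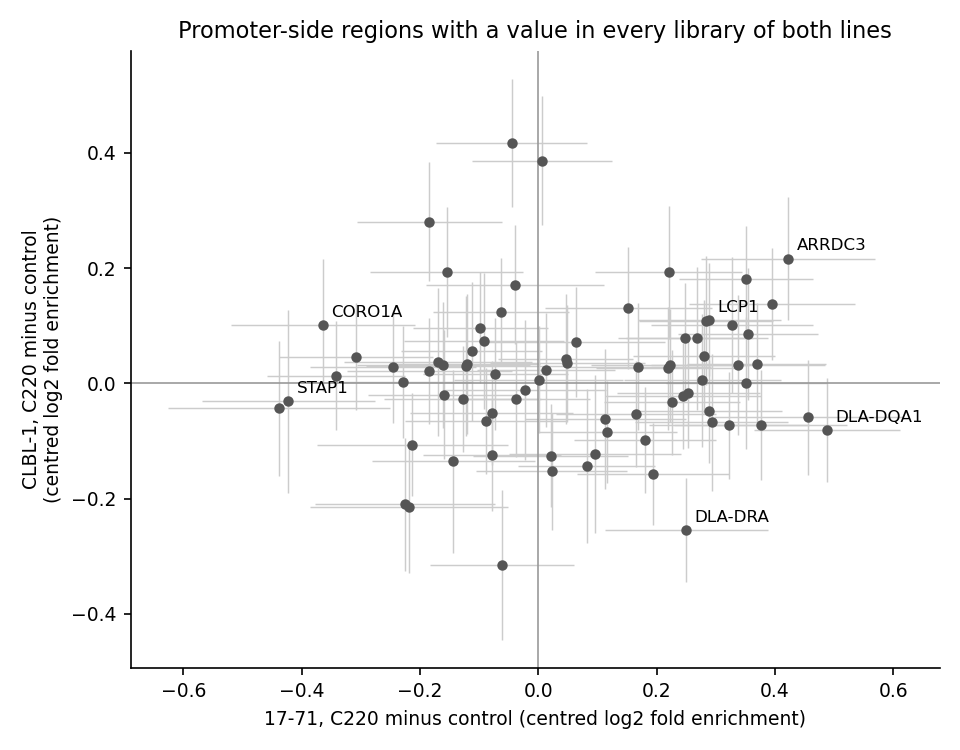
C220 minus control difference in centred log2 fold enrichment in 17-71 (horizontal axis) and CLBL-1 (vertical axis) for the 77 promoter-side regions measured in both lines. Bars are moderated standard errors from limma. The points lie in all 4 quadrants, with DLA-DQA1 and DLA-DRA right of zero and below it.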

How the data were processed

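ATAC-seq of 10 libraries (17-71: 3 control, 2 C220; CLBL-1: 2 control, 3 C220) was analysed from the deposited broad peak lists, 1 per library, not pooled. The authors aligned read pairs with Bowtie2 2.2.4 to CanFam3.1 (fragments up to 2000 bp) and called peaks with MACS2 at a −log10 p of 5; not given in the sources used here were the MACS2 version, any removal of duplicates and the use of an input. The genome size was set to the human default in that call. The deposited fold enrichment is a ratio of signal to local background, not scaled between libraries, and the deposited −log10 p and −log10 q values are the caller's. Depth could not be read from the peak lists, so precision rests on the libraries per group.

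Rows, gene pairs and positions came from the authors' supplementary table, of which the rows at hand were used; its counts, log2CPM, fold changes and p-values were neither used nor printed. Of the 251 regions, 250 equal a merged 17-71 region (TNNT2 differs). Peaks of a line were merged where they touched or overlapped. A call was an overlap of 1 bp, and a region took the fold of its peak of largest −log10 p. A promoter-side region took the CLBL-1 strength of the merged CLBL-1 region it overlapped. Log2 folds, with no pseudocount, were centred on the library median and fitted with limma 3.58.1 (R 4.3.3) within a line; the Benjamini-Hochberg threshold was 0.05, two-sided, and only CLBL-1 was tested. The fit was tested on simulated data and the merging checked against bedtools 2.31.1. Python 3.11.15 with pandas 2.3.3 did the rest.

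The regions, gene lists, tests and alternatives were chosen with earlier results of these data known, and the lists were written from the paired names. Named by rule were up to 6 regions per exclusive pattern with the strongest weakest peak, listed genes with those patterns, the 4 highest and 4 lowest differences, MIR21, and the first and last row; other genes were named from the lists or after their values were seen. Alternatives were other thresholds, equal lists, wider overlap, other scalings and leaving out each library. No genome or annotation of CanFam3.1 was used, so sequence, exons and distances are not reported. Coordinates are 1-based.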

Additional observations from a re-analysis of the deposited data

Results flagged for a closer look

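At 3 regions all C220 libraries lay above all controls in 17-71 and below all controls in CLBL-1 in centred log2 fold enrichment, of 77 measured in both lines (3.9%, beside 2.5% of the 9186 regions measured in both). All C220 libraries lay above all controls in both lines at 4 of the 77 (5.19%, beside 2.29%), TAGAP, ZC3H12D, ARRDC3 and ENSCAFG00000024769. Of these, only TAGAP overlapped under another scaling, in 17-71 without centring and after quantile normalization. The CLBL-1 difference was 0.19 at TAGAP (0.10 without c5) and 0.14 at ZC3H12D (0.08 without c2). The difference between the lines was not tested, and the 17-71 values had a part in the choice of the regions. DLA-DQA1 had a difference of 0.488 (SE 0.12) in 17-71 and −0.081 in CLBL-1 (SE 0.09, limma adjusted p = 0.983). DLA-DRA had 0.2502 and −0.2552, and its 17-71 value was 0.13 without b1. The third, ENSCAFG00000013638 (chr30:11349685-11352354), a protein coding gene, had 0.18 and −0.0985, or 0.11 in 17-71 without b1 and −0.06 in CLBL-1 without c2 or without c4. Without centring the 17-71 groups overlapped at DLA-DRA and ENSCAFG00000013638 and the CLBL-1 groups at DLA-DQA1 and ENSCAFG00000013638.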

How the results depend on the processing

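No paired analysis was possible because the control and C220 libraries of each line share no replicate number. With peaks of −log10 p of at least 10, the 17-71 controls alone had 45 regions (25 with every peak) and C220 alone 0 (1). All 5 libraries had 38 (114) and 1 library 22 (47). The shares of all merged 17-71 regions were 6.09%, 0.0143%, 13.7% and 14.9%. In CLBL-1, 60 were called in all 5 (113) and 13 in 1 library (7). The shares of merged CLBL-1 regions were 30.7% and 7.51% (56.4% and 16.5% with every peak). Regions of 17-71 with no CLBL-1 call are not in these CLBL-1 shares, unlike the 29.3% given in the Results. With the 20000 strongest peaks of each list, so that lists were equal, 8 regions were called in the 17-71 controls alone and 8 in C220 alone (1.41% and 1.28% of merged regions), and in CLBL-1 1 and 1 (0.872% and 0.817%). With peaks covering at least 50% of the region, 67 (17-71; 24.0% of its merged regions) and 66 (CLBL-1; 45.9% of its own) were called in all 5. Leaving out a library gave 25 to 58 regions in 17-71 controls alone (58 without b6, beside 16.8% of all merged 17-71 regions). In C220 alone it gave 1 to 23 (6 without b1, 17 without b4, 23 without b6, beside 0.782%, 2.16% and 1.82%). All libraries had 114 to 147 (147 without b4, beside 45.9%). A single library had 27 to 55 (27 without b4 and 55 without b1, beside 25.2% and 19.4%). In CLBL-1, leaving out a library gave 0 to 2 in controls alone (1 without c2, 2 without c3, 1 without c5). The shares of merged CLBL-1 regions were 2.77%, 2.75% and 1.02%. C220 alone had 2 to 5 (5 without c6, beside 4.82%) and all libraries 113 to 121 (121 without c6, beside 59.3%). Any library had 147 to 151 (147 without c4, beside 95.3%) and a single library 8 to 14 (14 without c5, beside 16.9%). The 1 region passing in CLBL-1 was lost (0) without centring, with a length-weighted mean and without c4, c5 or c6. None of the promoter-side regions passed in any of these. The 17-71 median difference was −0.03 without centring, −0.02 after quantile normalization, 0.12 with the stricter peaks, and 0.00050 to 0.087 without a library. The cause of these shifts was not tested. A fit with 1 library left in an arm assumes that it varies like the others. Depth could not be read from the peak lists, and its part in the absences of a call was not tested.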
